A study of Rattus norvegicus with 13 samples.

Results

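The astrocyte maturation genes comprised 10 genes chosen by name: the gap junction genes *Gja1* and *Gjb6*, the transporter genes *Slc1a2* and *Slc1a3*, the water channel gene *Aqp4*, the adhesion gene *Hepacam*, the receptor gene *Fgfr3*, the enzyme gene *Aldh1l1*, and the cytoplasmic markers *Gfap* and *S100b*. Each name was looked up in the gene name column of the normalized count table, and all 10 were found, with 1 row each, among 14716 rows. All 10 passed the minimum mean of 10 normalized counts, as did 14606 rows in all. RNA was sequenced from the posterior ventricular zone (VZ), the progenitor layer lining the lateral ventricle, which was isolated by laser capture microdissection on postnatal day (PN) 2. The 13 pups were male Long Evans rats, 1 per litter. The 7 control pups came from dams given drinking water without drug, and the 6 propylthiouracil (PTU) exposed pups came from dams given 3 ppm PTU, an inhibitor of thyroid hormone synthesis, from early pregnancy on. The labels call the controls euthyroid, and they describe the exposure as causing mild hypothyroidism in the dams and hypothyroidism in the offspring. The strain was the same in both groups, and the captured layer is a tissue region, not a purified cell type. The comparison addressed how the VZ transcriptome differed under low thyroid hormone in the newborn.

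Astrocytes are born from radial glia, the stem cells of the VZ, once neurogenesis declines around birth. As they mature they gain glutamate uptake, water and potassium transport, coupling through gap junctions, and endfeet on blood vessels, and the members encode parts of this equipment. Several of the genes, *Slc1a3*, *Gja1* and *Fgfr3* among them, are also used by radial glia, and thyroid hormone is known to promote glial maturation.

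All 10 members had a mean log2 fold change (PTU minus control) below 0, although *Slc1a2*, *Gja1*, *Gjb6* and *S100b* lay above 0 after scaling all pups to 1 common total. That scaling moved the median of all rows from 0.00 to 0.20. It shifts all genes nearly alike, so a member's place relative to the median of all rows cannot change with it. None of the 10 passed an adjusted p of 0.05 in limma, and none of the 14606 rows did (0.0%), the smallest adjusted p being 0.0981. At an unadjusted p under 0.05, 3 members were lower (*Hepacam*, *Aldh1l1* and *Aqp4*) and 0 were higher, where 8.2% of all rows were lower and 8.11% were higher. A log2 fold change below 0 was seen in 49.3% of all rows. The median log2 fold change of the members was -0.26, against 0.00 over all rows. No member had every PTU exposed pup below every control, a separation found in 0.26% of rows. In RNA from a captured tissue region, fewer cells of a type and less RNA per cell cannot be told apart.

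**Figure D1:**
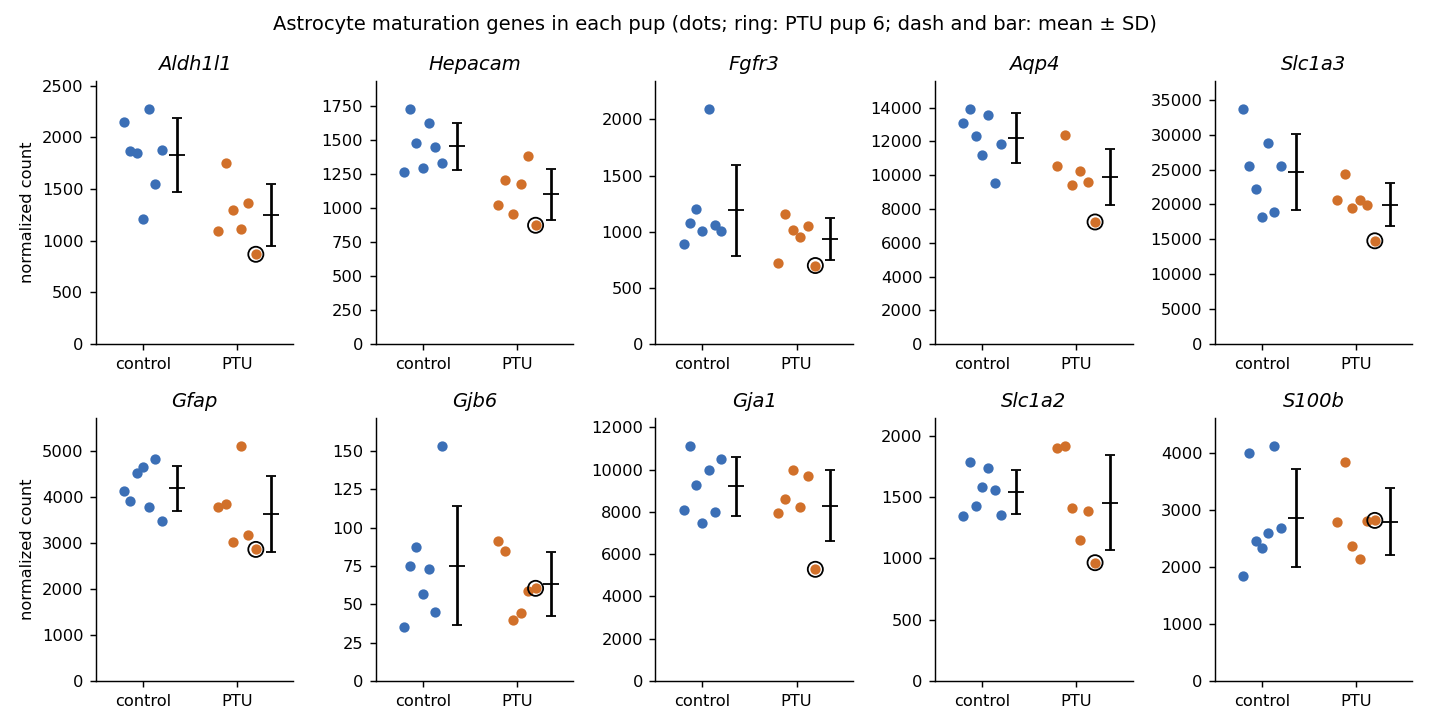
Normalized counts of the 10 astrocyte maturation genes in each of 7 control and 6 PTU exposed pups. There is 1 panel per gene and 1 point per pup, with the mean and SD of each group. A ring marks PTU pup 6. The groups overlap in every panel, and PTU pup 6 is the lowest of the 13 pups in 8 panels.

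**Figure D2:**
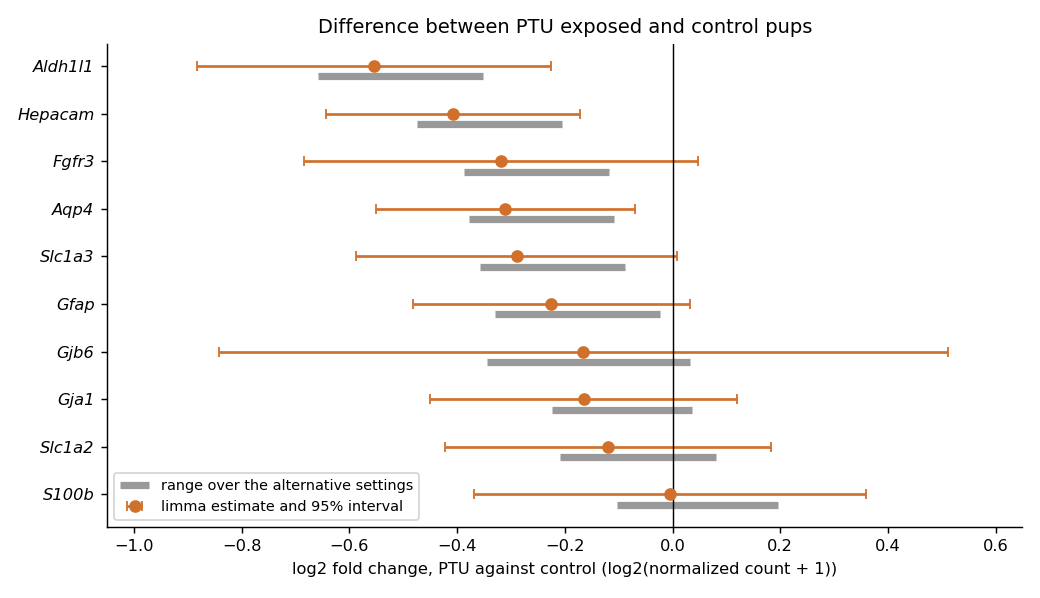
Log2 fold change (PTU minus control) of each member on the log2(normalized count + 1) scale, with its 95% confidence interval from limma. The intervals of *Aldh1l1*, *Hepacam* and *Aqp4* lie below 0 and the other 7 include 0; when all pups were scaled to the same total, *Slc1a2*, *Gja1*, *Gjb6* and *S100b* had values above 0.

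Promoters are shown for *Aldh1l1* and *Hepacam*, the members with the lowest fold changes. Also shown is that of *Slc1a3*, which had the highest correlation with *Aldh1l1* over the 13 pups once group means were removed. The last promoter is that of *Gfap*, whose correlations with the other members over the 13 pups were at most 0.22. Each runs 5′ to 3′ from 250 bases before to 50 bases after a RefSeq transcription start in the GRCr8 build, a later build than the mRatBN7.2 used for the counts. Capitals mark matches to 3 motifs searched on both strands: AGGTCA, the half-site bound by thyroid hormone receptors, TTGGC, the half-site of nuclear factor I, and TTCNNNGAA, the STAT site. Windows lie at chr4:124616970-124617269 (plus strand) for *Aldh1l1*, chr2:59557759-59558058 (minus strand) for *Slc1a3*, chr8:45276344-45276643 (plus strand) for *Hepacam* and chr10:88361612-88361911 (minus strand) for *Gfap*. *Slc1a3* had 3 windows and *Hepacam* had 2, of which 1 each is printed.
Aldh1l1: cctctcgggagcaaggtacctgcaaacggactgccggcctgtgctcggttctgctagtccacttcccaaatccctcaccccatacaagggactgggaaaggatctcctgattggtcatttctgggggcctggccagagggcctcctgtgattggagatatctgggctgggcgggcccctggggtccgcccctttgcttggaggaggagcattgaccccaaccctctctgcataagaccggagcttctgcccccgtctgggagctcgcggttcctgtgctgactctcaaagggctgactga
Slc1a3: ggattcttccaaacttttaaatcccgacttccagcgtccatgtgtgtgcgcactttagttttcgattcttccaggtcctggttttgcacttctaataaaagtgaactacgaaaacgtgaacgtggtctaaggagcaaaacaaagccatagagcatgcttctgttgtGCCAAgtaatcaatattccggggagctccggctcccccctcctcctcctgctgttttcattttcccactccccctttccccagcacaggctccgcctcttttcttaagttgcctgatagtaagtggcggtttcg
Hepacam: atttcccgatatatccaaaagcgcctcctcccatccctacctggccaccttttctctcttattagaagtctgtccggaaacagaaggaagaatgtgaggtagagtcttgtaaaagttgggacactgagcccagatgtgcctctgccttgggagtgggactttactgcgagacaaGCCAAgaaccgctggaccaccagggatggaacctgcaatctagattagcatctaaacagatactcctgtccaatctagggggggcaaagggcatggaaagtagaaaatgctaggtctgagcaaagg
Gfap: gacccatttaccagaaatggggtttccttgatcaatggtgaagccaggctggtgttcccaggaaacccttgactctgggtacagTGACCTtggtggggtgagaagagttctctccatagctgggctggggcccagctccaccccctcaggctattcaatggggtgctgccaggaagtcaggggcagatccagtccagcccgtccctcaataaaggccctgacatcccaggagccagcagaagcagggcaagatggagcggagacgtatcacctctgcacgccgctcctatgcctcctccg
The match in *Gfap* is the reverse complement of AGGTCA, and those in *Slc1a3* and *Hepacam* are the reverse complement of TTGGC. The *Aldh1l1* window held none of the 3 motifs. All 10 members had a window, and 16 windows in all. AGGTCA lay in 1 of the 16, against 16.2% of all 33469 windows, TTGGC in 9 of the 16, against 45.8%, and TTCNNNGAA in 0 of the 16, against 8.87%. A match describes the letters of a window and does not show binding.

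Among the genes of metabolism and adhesion, *Aldh1l1* and *Hepacam* had the lowest fold changes of the members. *Aldh1l1* (ENSRNOT00000105191) encodes a folate enzyme that is widely used as a pan-astrocyte marker. In control pups its normalized counts ranged from 1213 to 2272 with a median of 1872, and in PTU exposed pups from 869 to 1750 with a median of 1210. All 6 PTU exposed pups were below the control mean of normalized counts and 3 were below the lowest control, so the groups overlapped. The means were 1826 ± 356 (SD, n = 7) and 1250 ± 301 (SD, n = 6). The log2 fold change was -0.55 (SE 0.16, 95% interval -0.88 to -0.23), with an unadjusted p of 0.00242 and an adjusted p of 0.143 in limma. A two-sided exact permutation test over the 1716 ways to divide 7 and 6 pups, which can give no p below 0.000583, gave 0.0152. This call rested on the pups included: without PTU pup 2 the log2 fold change of *Aldh1l1* was -0.66, with an adjusted p of 0.0423 in limma. In that fit 179 of the 14608 rows tested passed the adjusted threshold (118 lower, 61 higher), against 0 with all pups.

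*Hepacam* (ENSRNOT00000107950) encodes a cell adhesion molecule of astrocyte junctions and endfeet. Its normalized counts ran from 1267 to 1726 in controls, with a median of 1450. In PTU exposed pups they ran from 873 to 1380, with a median of 1100. Only 1 of the 6 PTU exposed pups reached the control range. Means were 1453 ± 173 (SD, n = 7) and 1102 ± 187 (SD, n = 6). The difference was -0.41 on the log2 scale (SE 0.11, 95% interval -0.64 to -0.17), with an unadjusted p of 0.00201, an adjusted p of 0.136 in limma and an exact permutation p of 0.00524.

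The water channel gene *Aqp4* (ENSRNOT00000077606), whose product gathers at the astrocyte endfeet, ran from 9563 to 13898 normalized counts in controls, around a median of 12303. PTU exposed pups ran from 7230 to 12351, around a median of 9908. Here 5 of 6 PTU exposed pups were below the control mean and 2 were below the lowest control. The means were 12199 ± 1505 (SD, n = 7) and 9893 ± 1672 (SD, n = 6), a log2 fold change of -0.31 (SE 0.11, 95% interval -0.55 to -0.07). It had an unadjusted p of 0.0143, an adjusted p of 0.206 in limma and an exact permutation p of 0.0256. Without PTU pup 6, the lowest pup for most members, *Aqp4*, *Hepacam* and *Aldh1l1* remained the 3 members with an unadjusted p under 0.05 in limma, at log2 fold changes of -0.22, -0.34 and -0.46. Scaled to the same total, the same 3 genes had log2 fold changes of -0.11, -0.21 and -0.35, and none had an unadjusted p under 0.05.

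Glutamate uptake is represented by a pair of members. *Slc1a3* (ENSRNOT00000035821) encodes GLAST, the transporter already present in radial glia, and *Slc1a2* (ENSRNOT00000109994) encodes GLT-1, the main glutamate transporter of mature astrocytes. *Slc1a3* spanned 18206 to 33637 normalized counts among controls (median 25493) and 14802 to 24312 among PTU exposed pups (median 20320). All 6 PTU exposed pups were below the control mean, but only 1 was below the lowest control. Mean counts of 24684 ± 5470 (SD, n = 7) among controls compared with 19988 ± 3058 (SD, n = 6) after PTU. The log2 fold change was -0.29 (SE 0.14, 95% interval -0.59 to 0.01; unadjusted p = 0.0566 and adjusted p = 0.320 in limma). *Slc1a2* spanned 1343 to 1787 among controls (median 1555) and 964 to 1915 among PTU exposed pups (median 1397). PTU exposed pups lay on both sides of the whole control range for *Slc1a2*, with 2 below the lowest control, and the SD was 388 in PTU exposed pups against 178 in controls. Its log2 fold change of -0.12 had an interval of -0.42 to 0.18 (SE 0.14, adjusted p = 0.702 in limma), and it was -0.010 without PTU pup 6, -0.061 without PTU pup 4 and -0.21 without either PTU pup 1 or PTU pup 2. Whether the fold changes of the pair differed was not tested.

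*Fgfr3* (ENSRNOT00000080695), which encodes a fibroblast growth factor receptor of radial glia and astrocytes, spanned 889 to 2091 normalized counts among controls (median 1063) and 700 to 1162 among PTU exposed pups (median 988). The highest control, pup 5, stood far above the next control at 1201. The log2 fold change was -0.32 (SE 0.17, 95% interval -0.68 to 0.05), with an adjusted p of 0.367 in limma, and it was -0.17 without control pup 5. All 6 PTU exposed pups were below the control mean of normalized counts for *Fgfr3*, a mean that includes the 2091 of control pup 5.

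The marker *Gfap* (ENSRNOT00000034401) encodes the intermediate filament protein of astrocytes, and *S100b* (ENSRNOT00000001743) encodes a calcium binding protein that appears as astrocytes mature. *Gfap* spanned 3472 to 4819 normalized counts among controls (median 4116) and 2854 to 5099 among PTU exposed pups (median 3468). The spread was uneven: 3 of 6 PTU exposed pups were below the lowest control, while PTU pup 4 was the highest of all 13. The log2 fold change was -0.22 (SE 0.12, 95% interval -0.48 to 0.03), with an adjusted p of 0.365 in limma. *S100b* spanned 1833 to 4121 among controls (median 2599) and 2137 to 3846 among PTU exposed pups (median 2794). No PTU exposed pup was below the control range for *S100b*, the PTU median was above the control median, and the log2 fold change was -0.01 (SE 0.17, 95% interval -0.37 to 0.36). It took either sign as single pups were left out, from -0.10 without control pup 1 to 0.092 without control pup 6.

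The gap junction genes gave no separation of the groups. *Gja1* (ENSRNOT00000100494), encoding the most abundant astrocyte connexin, spanned 7468 to 11115 normalized counts among controls (median 9280) and 5279 to 9991 among PTU exposed pups (median 8423). Its log2 fold change was -0.16 (SE 0.14, 95% interval -0.45 to 0.12; adjusted p = 0.560 in limma), and 1 PTU exposed pup, pup 6, was below the control range. Without that pup the log2 fold change of *Gja1* was -0.041. *Gjb6* (ENSRNOT00000081757), encoding a connexin of mature astrocytes, spanned 35.0 to 153 among controls (median 73.3) and 39.6 to 91.4 among PTU exposed pups (median 59.7). For *Gjb6* the log2 fold change was -0.17 and its SE was 0.32, so the interval of -0.84 to 0.51 was wider than that of any other member. The log2 fold change was 0.028 without control pup 7, the pup with 153, and -0.32 without control pup 1.

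The count of low members differed between pups of the same group. PTU pup 6 was the lowest of 13 for 8 members, and its median difference from the control means of log2 values was -0.71. Members below the control mean of normalized counts numbered 10 in PTU pup 6, 9 in each of PTU pups 3, 4 and 5, 8 in PTU pup 1 and 6 in PTU pup 2. Among the controls the number ran from 3 in pups 2, 3 and 5 to 8 in pup 4. Without PTU pup 6 the median log2 fold change of the members was -0.19. Without PTU pup 2 there were 5 members with an unadjusted p under 0.05 in limma, with *Slc1a3* and *Fgfr3* added. In that fit 10.2% of all rows were lower at that p, against 8.2% with all pups.

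Once the group means were removed, members varied together to unequal degrees across the 13 pups. Of 45 pairs of members, 37 had a positive Pearson correlation, the range was -0.26 to 0.86 and the median was 0.33. Only 2 pairs passed an adjusted p of 0.05 over the 45 pairs in permutation tests. *Slc1a3* and *Aldh1l1* had r = 0.86 (permutation p = 0.00041, adjusted p = 0.0184) and Spearman's rho = 0.81 (permutation p = 0.00158, adjusted p = 0.0403). Their r was 0.89 within controls and 0.86 within PTU exposed pups, and 0.72 without control pup 4 and PTU pup 6, the pups farthest from the median of *Slc1a3*. *Aqp4* and *Slc1a3* had r = 0.83 (permutation p = 0.00088, adjusted p = 0.0198) and rho = 0.84 (permutation p = 0.00179, adjusted p = 0.0403), and r was 0.69 without control pup 6 and PTU pup 6. Values within controls and PTU exposed pups were 0.76 and 0.99. *Gfap* had r between -0.26 and 0.22 with the other members over the 13 pups, but the values within groups were unlike each other. Within controls they ran from -0.78 with *Gja1* to 0.10 with *S100b*, with -0.64 for *Aqp4*, -0.68 for *Slc1a3* and -0.64 for *Aldh1l1*. Within PTU exposed pups they ran from -0.22 with *S100b* to 0.60 with *Aqp4*, with 0.57 for *Slc1a3*. Without PTU pups 4 and 6, the pups farthest from the median of *Gfap*, r was -0.80 with *Gja1* and -0.17 with *Aqp4*. Whether the correlations differed between the groups was not tested.

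**Figure D3:**
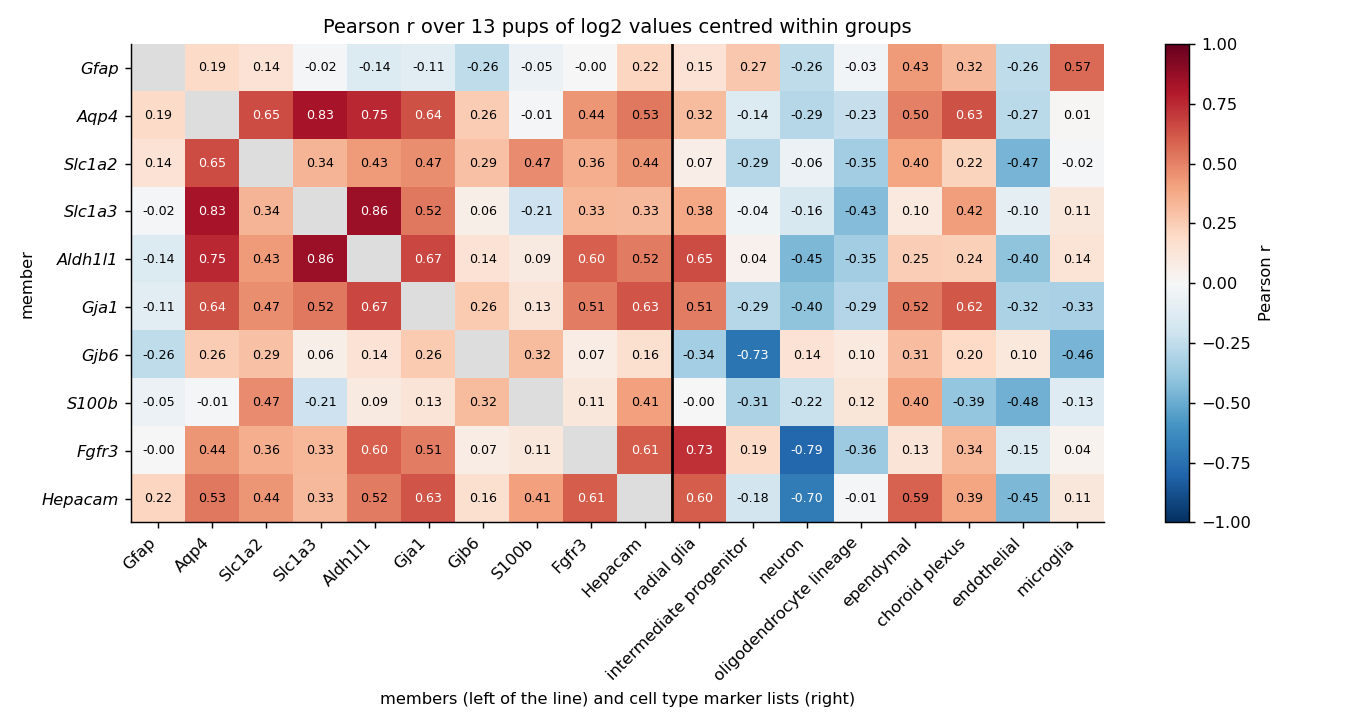
Pearson correlation between each pair of the 10 members across 13 pups after the group means were removed, as a colour scale from -1 to 1. *Slc1a3* with *Aldh1l1* (0.86) and *Aqp4* with *Slc1a3* (0.83) are the highest, and the *Gfap* values lie between -0.26 and 0.22, although within controls alone they reach -0.78 and within PTU exposed pups 0.60.

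Other genes of the astrocyte programme were read from 6 lists. Together these held 69 tested genes, of which 54 had a log2 fold change below 0. At an unadjusted p under 0.05 in limma, 25 were lower (36.2%, against 8.2% of all rows) and 0 were higher. Of these, *Hes5* is also in the radial glia marker list below, where 6 of 11 markers were lower at that p. No gene of the 6 lists passed the adjusted threshold, and their median log2 fold change was -0.18. With all pups scaled to 1 common total, 34 of the 69 were below 0, none was lower or higher at an unadjusted p under 0.05 in limma, and the median was 0.03, below the 0.20 of all rows. PTU pup 6 had the lowest sum of the 13 pups in 5 of the 6 lists, all but that of thyroid hormone handling. Without it, 51 of the 69 were below 0, 21 were lower at an unadjusted p under 0.05, and the median was -0.13. The medians of the gliogenic transcription factors and of the ion, transmitter and metabolic genes moved most, from -0.19 to -0.08 and from -0.23 to -0.12, and the secreted and surface genes lower at an unadjusted p under 0.05 went from 8 to 5.

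Of 10 genes listed as gliogenic transcription factors, 8 had a log2 fold change below 0. At an unadjusted p under 0.05 in limma 4 were lower: *Sox9*, *Hes1*, *Hes5* and *Lhx2*. *Sox9*, which opens the glial programme in neural stem cells, spanned 12924 to 16173 normalized counts among controls and 9358 to 14090 among PTU exposed pups (log2 fold change -0.37, SE 0.09, adjusted p = 0.132). *Hes1* and *Hes5*, effectors of Notch signalling, had log2 fold changes of -0.58 (SE 0.16) and -0.57 (SE 0.18). *Lhx2*, a transcription factor of cortical progenitors, had -0.39 (SE 0.10). A place in this list does not mean that a gene promotes gliogenesis. *Nfia*, a nuclear factor I gene needed for the onset of gliogenesis, had -0.05 (SE 0.09), and is named outside the rule for named genes. Of 15 genes found for cytokine, bone morphogenetic protein and Notch signalling, 10 were below 0 and 2 were lower at an unadjusted p under 0.05: *Notch2*, a receptor, at -0.47 (SE 0.15), and *Stat3*, the transcription factor through which cytokines induce *Gfap*, at -0.22 (SE 0.10). The next by p were *Notch1* at -0.17 (SE 0.10) and *Il6st*, a cytokine receptor subunit gene, at -0.16 (SE 0.11).

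Among 20 genes of ion transport, transmitter uptake and metabolism, 17 were below 0, with 7 lower and 0 higher at an unadjusted p under 0.05 in limma. *Glul*, encoding glutamine synthetase, which converts the glutamate that astrocytes take up, spanned 11602 to 14605 normalized counts among controls and 7414 to 11639 among PTU exposed pups. It had a log2 fold change of -0.37 (SE 0.10, adjusted p = 0.146), and a single PTU exposed pup reached the control range. *Adgrv1*, an adhesion receptor gene, *Atp1b2*, a sodium pump subunit gene, and *Gldc*, encoding an enzyme of glycine breakdown, had log2 fold changes of -0.39, -0.31 and -0.31. Among 14 secreted and surface genes, 11 were below 0 and 8 were lower at an unadjusted p under 0.05, including *Clu*, encoding the secreted chaperone clusterin, at -0.63 (SE 0.21), *Chrdl1*, encoding a bone morphogenetic protein antagonist, at -0.56 (SE 0.15), and the proteoglycan genes *Bcan* at -0.35 and *Cspg5* at -0.32.

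The 9 endfoot genes and partners of *Hepacam* included 8 below 0 and 3 that were lower at an unadjusted p under 0.05 in limma. *Mlc1*, whose product is held at astrocyte junctions by the *Hepacam* protein, spanned 4301 to 7250 normalized counts among controls and 3172 to 4825 among PTU exposed pups. It had a log2 fold change of -0.41 (SE 0.14, adjusted p = 0.174), beside -0.41 for *Hepacam*. *Dag1*, encoding dystroglycan, the endfoot receptor for laminin, spanned 8760 to 10892 among controls and 6159 to 8571 among PTU exposed pups. The groups did not overlap for *Dag1*, and its log2 fold change was -0.31 (SE 0.08, adjusted p = 0.134). *Kcnj10*, encoding the potassium channel Kir4.1, had a log2 fold change of -0.18 (SE 0.10, adjusted p = 0.407). Among the genes listed for thyroid hormone handling, *Slco1c1*, a thyroxine transporter gene, had a log2 fold change of -0.27 (SE 0.09, adjusted p = 0.174 in limma). *Dio2*, encoding the deiodinase that makes active hormone, had 0.09 (SE 0.17, adjusted p = 0.832). Whether this RNA came from astrocytes or from other cells of the captured tissue was not tested.

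**Figure D4:**
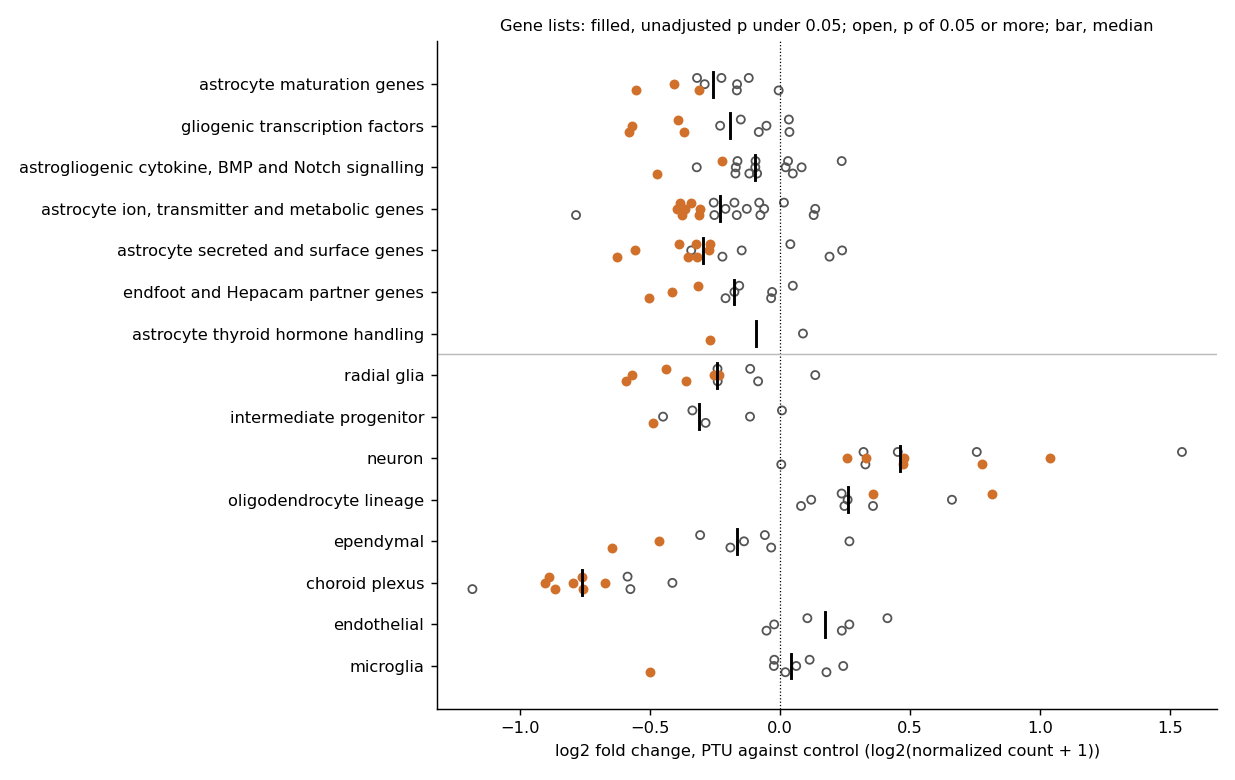
Log2 fold change (PTU minus control) of each gene in the member list, the pathway lists and the cell type marker lists, with 1 point per gene (filled where limma gave an unadjusted p under 0.05) and a bar at each list's median. The medians run from -0.76 for choroid plexus to 0.46 for neuron, with the members at -0.26; scaling to the same total adds about 0.20 to every value, which puts the medians of some lists above 0.

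Markers of other cells in or beside the captured tissue were read from the same libraries, and none passed the adjusted threshold. The genes named for each list have its smallest unadjusted p, in that order, each with its log2 fold change. Among 11 radial glia markers found of 12 (no row for *Ptprz1*), 10 were below 0 and 6 were lower at an unadjusted p under 0.05 in limma. Their median log2 fold change was -0.24, with *Emx2* (-0.59), *Pax6* (-0.44), *Vim* (-0.36) and *Hes5* (-0.57). Their summed level was 99395 to 123484 normalized counts in controls and 81899 to 108784 in PTU exposed pups. All 11 choroid plexus markers were below 0, 7 of them at an unadjusted p under 0.05, with a median of -0.76 and sums of 54385 to 148583 in controls and 26646 to 112169 in PTU exposed pups, with *Clic6* (-0.87), *Ttr* (-0.90), the carrier of thyroxine in cerebrospinal fluid, *Slc4a5* (-0.76) and *Lmx1a* (-0.89). All 12 neuron markers were above 0, 6 of them at an unadjusted p under 0.05, with a median of 0.46 and sums of 57099 to 86086 in controls and 75915 to 132859 in PTU exposed pups, with *Stmn2* (0.48), *Gap43* (1.04), *Dcx* (0.26) and *Snap25* (0.77). The 9 oligodendrocyte lineage markers were also above 0, with 2 at an unadjusted p under 0.05, a median of 0.26, and sums of 6009 to 11733 and 8472 to 14311, with *Cspg4* (0.36), *Mbp* (0.66) and *Olig1* (0.24). Of the ependymal markers, 8 of 10 were found (no row for *Foxj1* and *Mia*), with 7 below 0, a median of -0.16, and sums of 3228 to 6476 and 2685 to 5070, with *Cfap126* (-0.64), *Rsph1* (-0.46), *Dnah9* (-0.31) and *Dnah5* (-0.19). The 6 intermediate progenitor markers had a median of -0.31, with 5 below 0, with *Eomes* (-0.49), *Neurog2* (-0.34), *Neurog1* (-0.45) and *Neurod4* (-0.29). The 6 endothelial markers found of 8 (no row for *Cldn5* and *Flt1*) had a median of 0.17, with *Esam* (0.41), *Cdh5* (0.27), *Pecam1* (0.24) and *Tek* (0.11). The 8 microglia markers had a median of 0.04, with *C1qa* (-0.50), *Cx3cr1* (0.24), *C1qb* (0.11) and *Tmem119* (0.18), and 1 of 5 erythrocyte markers was found, *Hba-a2* (-0.47). No marker found was at 0. PTU pup 6 was the lowest of 13 for the summed choroid plexus and ependymal markers and the highest for the oligodendrocyte lineage markers. PTU pup 1 was the highest of 13 for the summed neuron markers and the lowest for the radial glia and intermediate progenitor markers. Without PTU pup 6 the ependymal median was -0.07 with 5 of 8 below 0. The endothelial median was then 0.10, and 3 neuron markers were higher at an unadjusted p under 0.05. With all pups scaled to 1 common total, 8 radial glia markers were below 0 and 0 were lower at an unadjusted p under 0.05. At that p 3 choroid plexus markers were lower, and 7 neuron and 4 oligodendrocyte lineage markers were higher, while 5 of 8 ependymal markers were above 0. That scaling left 21.5% of all rows below 0, with a median of 0.20. Of 14606 rows, 81 were lower and 1584 higher at that p. Below that median lay 10 of 11 radial glia markers, 7 of 8 ependymal markers, and 0 neuron or oligodendrocyte lineage markers. What part the mix of cells had in the members' values was not tested.

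Within groups, 1 of 80 combinations of a member and a marker list passed an adjusted p of 0.05 for Pearson's r. *Fgfr3* and the mean of the neuron markers had r = -0.79 across 13 pups (permutation p = 0.0006, adjusted p = 0.048) and rho = -0.87 (permutation p = 0.00079, adjusted p = 0.0632). It was -0.87 within controls, -0.84 within PTU exposed pups, and -0.78 without control pup 1 and PTU pup 1. Without control pup 5, the pup with the high *Fgfr3* value, r was -0.84 over the other pups and -0.85 within controls. Pups with more neuron marker RNA had less *Fgfr3* RNA in both groups. The correlations of *Fgfr3* with radial glia markers (0.73), of *Gjb6* with intermediate progenitor markers (-0.73) and of *Hepacam* with neuron markers (-0.70) did not pass.

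The genes whose profile across the 13 pups, with group means removed, was most like the mean profile of the members were *Tmem100* (r = 0.94), *Nrbp2* (0.91), *Septin9* (0.91), *Ccdc102a* (0.90) and *Epas1* (0.89), out of 11077 rows with a mean of at least 100 normalized counts. These values are a description: within a pup, all genes were read from the same library and the same mix of cells.

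The values are not raw reads, and a rough estimate of library depth from the step between low values was 22300000 to 44400000 reads per pup. The estimate is approximate, since 89.9% to 91.6% of values from 20 to 150 lay within 0.1 of a whole multiple of the step. The 3 highest rows, which had no gene name, took 32.4% to 60.1% of the normalized counts in controls (median 50.9%) and 23.9% to 57.0% in PTU exposed pups (median 35.8%), and these rows set much of the total used in scaling to the same total. Pups correlated with one another at r = 0.918 to 0.980 over all rows tested, and no pair of libraries was identical.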

How the data were processed

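Total RNA of the laser captured posterior VZ was sequenced from 7 control and 6 PTU exposed pups. Reads were trimmed (Trimmomatic) and aligned by the authors to the mRatBN7.2 build (STAR 2.7.8a), and the expectation/maximization model in Partek Flow gave estimated counts, which DESeq2 scaled by its median ratio. The deposited values are this signal per transcript or gene: estimated counts divided by a size factor, so neither whole reads nor per length, and levels of different genes were not compared. Reads shared by transcripts of a gene were divided by that model, so a row may hold part of a gene. Between 89.9% and 91.6% of values from 20 to 150 lay within 0.1 of a whole multiple of a sample's step, too few to recover reads. Of 14716 rows, 1488 had no gene name, 14466 carried transcript and 250 gene identifiers. The file also holds columns of the authors' comparison (p-values, false discovery rates, ratios, fold changes and least squares means), which were not used.

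Groups were taken from the labels. Rows averaging at least 10 were tested with limma 3.58.1 in R 4.3.3 on log2(normalized count + 1), with a variance trend and Benjamini-Hochberg adjustment over all 14606 rows at 0.05. Fold changes on this scale understate changes of low rows. Exact permutation tests were two-sided. Correlations used 100000 permutations within groups (scipy 1.17.1), adjusted over 45 pairs of members and 80 combinations of a member and a marker list. The fit was tested on simulated data. Named genes were every member, the 4 genes of each list with the smallest unadjusted p, and the 5 rows most like the members. Some genes that this rule names are not reported here. Members and lists were chosen with earlier results of these data known. Alternatives were no filter, stricter filters, other pseudocounts and scalings, weighted pups, no variance trend, a replicate block, summed rows of a gene and leaving out each pup. Pups came from separate litters. Promoters came from RefSeq (GRCr8).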

Additional observations from a re-analysis of the deposited data

Results flagged for a closer look

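Of 20 sets of values examined (10 members in 2 groups), 1 held a pup that stood apart by Dixon's test: *Fgfr3* in control pup 5, at 2091 normalized counts, where the nearest other control had 1201. Chance alone marks about 1 set in 20. Without this pup the log2 fold change of *Fgfr3* was -0.17.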

How the results depend on the processing

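Over 25 alternatives, 13 of which left out 1 pup, 236 of 249 member log2 fold changes kept their sign and their side of the adjusted threshold, 12 changed sign and 1 passed the threshold (*Aldh1l1* without PTU pup 2). The number of rows called, 0 in the analysis reported, was 40 with pups weighted by quality (22 lower, 18 higher) and 18 with the replicate block (16 lower, 2 higher). It ranged from 0 to 179 as each pup was left out, with 179 without PTU pup 2 and 7 without control pup 6. The cause was not tested. Members called ranged from 0 to 1 as each pup was left out.

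The 3 members lower at an unadjusted p under 0.05 became 0 with the same total for every pup and 6 with the replicate block. They ranged from 3 to 5 as each pup was left out. The share of all rows lower at that p was 8.2% in the analysis reported, 0.555% with the same total and 10.2% with the replicate block. As each pup was left out that share was 6.14% to 10.2%, the 10.2% without PTU pup 2. The 10 members below 0 became 6 with the same total, which gave *Slc1a2* 0.082, *Gja1* 0.037, *Gjb6* 0.033 and *S100b* 0.20. That scaling put 21.5% of all rows below 0, against 49.3% in the analysis reported, with 81 rows lower and 1584 higher at an unadjusted p under 0.05; the 3 highest rows set much of the total. With the same total over all rows but those 3, an alternative chosen after seeing the data, 3 members were lower at an unadjusted p under 0.05 and *S100b* changed sign at 0.00025. *S100b* was 0.034 with weighted pups and ranged from -0.10 to 0.092 as each pup was left out. *Gjb6* was 0.028 with the replicate block and ranged from -0.32 to 0.028. A minimum mean of 100 left *Gjb6* out. Counts for the gene lists without PTU pup 6 or under the common total, and correlations with each pup left out, were chosen after seeing the data.

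Replicate numbers were not taken as pairs, since every pup came from a litter of its own. Same-numbered pups correlated at -0.07 to 0.20 in their deviations from the group means, over 0.1 in 4 of 6 pairs, and 1 of 6 PTU exposed pups correlated best with its own number. With 7 and 6 pups, the SE of a member's log2 fold change was 0.11 to 0.32, and *Gjb6*, at 35.0 to 153 normalized counts, was the least precise.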
